A study of Mus musculus with 12 samples.

Results

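The difference in hypoxia response between 2 mouse fibroblast lines was examined gene by gene across all 12 RNA-seq samples of the series, which are all of its samples. For each gene, the response is the log2 ratio of hypoxia to normoxia, and the quantity tested was the response of the deletion line minus that of wild type (the interaction). A positive difference means a stronger rise, or a weaker fall, in the deletion line. NIH3T3 is an established mouse embryonic fibroblast line. Cells of the unedited line (wild type) and of the edited line (ΔN-VEGF, dN-VEGF in the labels) spent 16 h either in normoxia or in hypoxia of less than 0.2% O2, and each of the 4 groups had 3 samples. ΔN-VEGF cells are NIH3T3 cells without the stretch of Vegfa that encodes N-VEGF. They came from isolated clones in which a selectable reporter cassette replaced the stretch and was then removed with VCre recombinase before sorting, so line and clone history cannot be told apart. Nothing in the labels says that the samples were separate cultures, so p-values measure the spread between these samples, which may be partly technical.

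VEGF-A is the secreted growth factor that low oxygen induces and that drives the growth of blood vessels. Its messenger RNA can also be translated from an upstream start, and the longer protein is then cut into VEGF and the N-terminal part called N-VEGF, which the study places in the nucleus during hypoxia. In low oxygen, cells stabilise HIF transcription factors, which raise glycolysis and VEGF-A. They also limit translation through the integrated stress response and slow the cell cycle, while sterol synthesis, which uses molecular oxygen at several steps, is adjusted to supply.

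The deletion was made with a pair of guides, shown with the PAM in capitals because they mark the edited part of Vegfa. Both 20-base targets were found in Vegfa exon sequence on chromosome 17 of GRCm38. The site of gRNA1 lies on the plus strand at chr17:46031824-46031843, in sequence annotated as coding in 5 transcripts that start upstream. The site of gRNA4 lies on the minus strand at chr17:46031399-46031418, coding in 5 transcripts and untranslated in 1 other.
gRNA1: tcggcagcccgccggcgaggAGG
gRNA4: ctcgcagtccgagccggagaGGG

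Counts on genes came to between 30519052 and 43056690 per sample, and 14724 of 54446 genes passed the filter on low counts. All 10 fibroblast markers were detected and summed to between 18700 and 45500 CPM (counts scaled to a common library size, for these marker sums by total counts only). Summed markers of endothelial, leukocyte, epithelial, adipocyte, muscle and neuronal cells stayed at or below 49.6 CPM per list in every sample. Endothelial markers were at 17.1 to 21.7 CPM in hypoxic ΔN-VEGF cells against 7.7 to 9.63 CPM in hypoxic wild-type cells, and 2 of the 8 (Cdh5 and Tie1) averaged at least 1 CPM. Leukocyte markers were also higher, at 45.8 to 49.6 CPM against 34.9 to 35.8 CPM. Epithelial markers went the other way, at 2.51 to 2.79 CPM against 8.5 to 9.99 CPM, as did neuronal ones, at 22.8 to 25.6 CPM against 33.3 to 38.8 CPM. Adipocyte markers (3.48 to 4.64 against 5.24 to 6.11 CPM) and muscle markers (2 to 2.27 against 3.53 to 5.24 CPM) were lower too. The part of these lists in any result was not tested. Rhox5, a homeobox gene picked from earlier results of these data because it separates the lines, and so no check of the labels, stood at 3.63 to 4.37 CPM in the 6 wild-type samples and at 56.8 to 87.5 CPM in the 6 ΔN-VEGF samples.

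A pair of libraries stood apart before any test. The normoxic wild-type sample numbered 2 had a voom quality weight of 0.0261, against 1.65 and 1.82 for the other normoxic wild-type samples. The normoxic ΔN-VEGF sample numbered 2 had a weight of 0.134, against 2.5 and 1.97. On the second principal component the normoxic wild-type samples lay at -58.8, 58.8 and -57.8 and the normoxic ΔN-VEGF samples at -2.2, 33.8 and -2.4, so both samples numbered 2 lay on the same side of their groups. Counts of genes and of list members are therefore given with all 12 samples and without these 2. Values of single genes are from all 12 samples unless stated otherwise.

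With all 12 samples, the response differed between the lines for 495 genes (edgeR's quasi-likelihood test, Benjamini-Hochberg adjusted p below 0.05, the call used throughout), while 3098 had an unadjusted p below 0.05. The difference was positive for 326 genes (2.21% of those tested) and negative for 169 (1.15%). Over all tested genes the median difference was 0.03. When samples were scaled by total counts only, that median moved to -0.147 and the split became 147 positive and 756 negative, so the balance of directions depends on the scaling. The median absolute difference of the 495 was 0.951, and 478 of them are protein coding. The lines lay further apart in hypoxia than in normoxia for 419 of the 495.

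Without the normoxia samples numbered 2, 7963 of 15083 genes were called, 3888 positive (25.8%) and 4075 negative (27%). All 495 genes were among them with the same sign. The median standard error of the difference over all genes was 0.295 with all samples and 0.123 without these 2. Each of the 10 other samples, left out singly, brought the count to between 75 and 188. Without wild-type normoxia replicate 2 it was 6729, and without ΔN-VEGF normoxia replicate 2 it was 721. A fit chosen after seeing the data kept only the samples numbered 2 for normoxia. There 493 of the 495 genes had the same sign, and 424 were called with that sign. Of the 7963 genes, 7898 could be tested in it, of which 1437 were called with the same sign and 374 with the opposite sign.

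The 66 called genes named by the rule and reported here were all called with the same sign without the normoxia samples numbered 2, where the difference was 0.798 to 1.64 times that with all samples (median 1.1), and Edn2 was the 1 gene that moved by over 1.5 times. There the difference was -1.42 for Cyp51, 2.24 for Atf5, -2.94 for Slfn9, -2.01 for Tnxb, 3.76 for Tspan33 and 1.81 for Vegfa. Leaving out any one of the 10 other samples took the call from 35 to 45 of the 66. With only the samples numbered 2 for normoxia, the difference was smaller by over 1.5 times for 25 of the 66 and larger by as much for 0. The median ratio to the difference with all samples was 0.767.

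The called genes were classed by their fitted responses. A response was reversed where the signs were opposite and both were at least 0.5 on the log2 scale, and otherwise larger or smaller by its size in ΔN-VEGF cells. A larger response was the most frequent class, with 297 larger rises and 139 larger falls. There were 22 smaller rises, 17 smaller falls, 12 genes reversed to a rise and 8 reversed to a fall. The median response of the larger rises was 0.63 for wild type against 1.67 for ΔN-VEGF. For the larger falls it was -0.47 and -1.63. Without the normoxia samples numbered 2, the classes held 2308 larger rises, 2723 larger falls, 1143 smaller rises, 1237 smaller falls, 343 genes reversed to a rise and 209 reversed to a fall, so smaller responses took a greater share there.

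**Figure D1:**
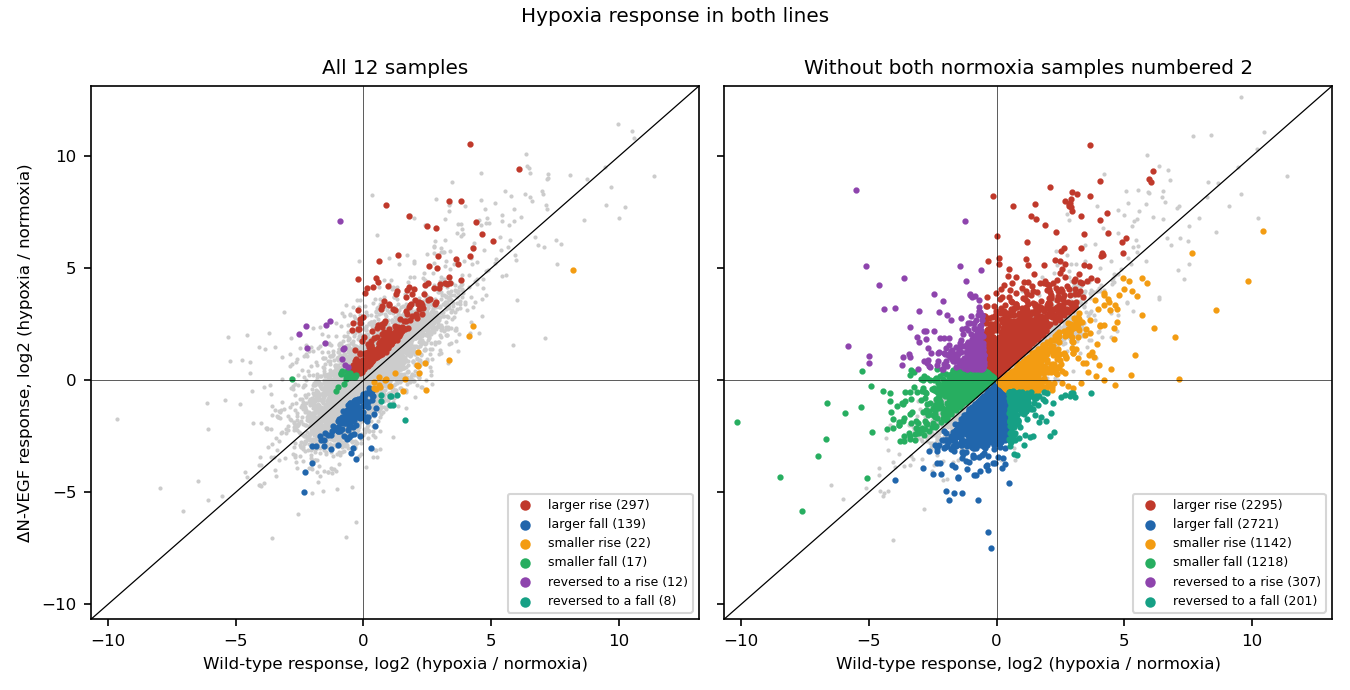
Hypoxia response (log2 of hypoxia over normoxia) of each tested gene in wild-type cells (x axis) and ΔN-VEGF cells (y axis), with all 12 samples (left) and without both normoxia samples numbered 2 (right). Colored points are called genes by class with their counts in the key, grey points were not called, the diagonal marks equal responses, and the right panel shows only genes that were also tested with all samples. On the left most called genes lie further from 0 on the y axis than on the x axis (297 larger rises and 139 larger falls).

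Genes of cholesterol synthesis made up the functional list with the highest share of called members. Of 24 members, 23 were tested and 14 had a more negative response in ΔN-VEGF cells, with differences from -1.63 to -0.47, beside a background of 1.15%, while 0 had a more positive one. The median response of the 23 was -0.21 for wild type against -1.16 for ΔN-VEGF. The lists, like those that follow, were written with earlier results of these data known.

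Cyp51, the lanosterol demethylase (chr5:4081145-4104746, GRCm38), was at 214, 218 and 224 CPM in normoxic and 175, 161 and 171 CPM in hypoxic wild-type cells. In ΔN-VEGF cells it was at 175, 188 and 190 CPM in normoxia and 49.3, 58.4 and 51.5 CPM in hypoxia. The 3 hypoxic ΔN-VEGF samples lay below all 9 others, and those 9 lay within 161 to 224 CPM. On the log2 scale it fell by 0.37 in the wild type and by 1.80 in the edited line, a difference of -1.42 (SE 0.12, adjusted p = 0.00058 in edgeR's test), and the gene overlaps Akap9 in these positions, so its counts are uncertain to that extent. Fdps, farnesyl diphosphate synthase, was at 27.1 to 31.7 CPM in normoxic and 21.8 to 25.4 CPM in hypoxic wild-type samples, against 24.2 to 26.6 and 8.71 to 9.43 CPM in ΔN-VEGF cells. Again the hypoxic ΔN-VEGF samples were separate from all others, with a difference of -1.12 (SE 0.14, adjusted p = 0.0048). The sterol methyl oxidase Msmo1 gave -1.12 as well (SE 0.15, adjusted p = 0.0048), and Hmgcs1, which makes HMG-CoA, gave -1.21 (SE 0.17, adjusted p = 0.0063). Hmgcs1 was at 168 to 242 CPM in the 9 other samples and at 75.2 to 79 CPM in hypoxic ΔN-VEGF cells.

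The 9 members that were not called, enzymes among them, also had negative differences. Named after their values were seen, Insig1, which holds back SREBP processing, had a difference of -0.35 (adjusted p = 0.311) and Srebf2, the transcription factor of the pathway, -0.24 (adjusted p = 0.347). Sqle was the single called member with a smaller rise, with responses of 0.41 for wild type and -0.06 for ΔN-VEGF, and was also named after its values were seen. The median level of the list, on a log2 scale centred on each gene's mean, was 0.35 to 0.39 in normoxic wild-type samples, 0.12 to 0.18 in hypoxic wild-type samples and 0.26 to 0.36 in normoxic ΔN-VEGF samples. In hypoxic ΔN-VEGF samples it was -0.90 to -0.68. When the normoxia samples numbered 2 were left out, 21 members were called, all negative (background 27%), and the median difference was -0.77, close to -0.79 with all samples. With only those samples for normoxia it was -0.73. Left out singly, each of the 10 other samples reduced the count of 14 to between 6 and 10.

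The integrated stress response restrains translation and, through ATF4, raises amino acid supply. Of its 31 listed members, 28 were tested, 12 had a more positive response (background 2.21%) and 0 a more negative one. The median response was 0.61 for wild type against 1.17 for ΔN-VEGF. All 12 were larger rises.

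Atf5, a transcription factor of the stress response, stood at 75.4, 51.4 and 79.9 CPM in normoxic and at 145, 166 and 153 CPM in hypoxic wild-type cells. The ΔN-VEGF samples had 48.3, 55.2 and 45.6 CPM in normoxia and 463, 421 and 456 CPM in hypoxia. Hypoxic samples of both lines were above all normoxic samples, and the ΔN-VEGF ones were the higher. The difference was 2.0 (SE 0.21, adjusted p = 0.00195), and Atf5 overlaps Nup62. Sesn2, a sestrin that restrains mTORC1 signaling, rose by 1.70 in the wild type and by 2.97 in the edited line, from 34.5 to 47.8 CPM up to 131 to 148 CPM and from 33.1 to 36.2 CPM up to 262 to 276 CPM. Its difference was 1.27 (SE 0.17, adjusted p = 0.0048).

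Slc7a5, the large neutral amino acid transporter, was at 223, 305 and 204 CPM in normoxic and 221, 230 and 218 CPM in hypoxic wild-type cells, groups that overlap. It moved from 155, 169 and 145 CPM to 390, 351 and 363 CPM in ΔN-VEGF cells, with no overlap. The difference was 1.36 (SE 0.19, adjusted p = 0.00692). Asns, asparagine synthetase, rose in both lines, from 252 to 265 CPM up to 347 to 351 CPM in wild-type and from 219 to 237 CPM up to 472 to 494 CPM in ΔN-VEGF cells, and its difference was 0.66 (SE 0.10, adjusted p = 0.00904). Fgf21, a stress-induced hormone, had few reads, with 34, 3 and 56 counts in normoxic and 28, 18 and 32 in hypoxic wild-type cells. In ΔN-VEGF cells it had 18, 3 and 10 counts in normoxia and 134, 122 and 148 in hypoxia. The hypoxic ΔN-VEGF samples exceeded all others. With only the normoxia samples numbered 2, which had 3 counts in each line, the difference of Fgf21 was 2.51, against 3.98 with all samples.

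The 16 members that were not called had differences from -0.16 to 2.04. In the fit that omits the normoxia samples numbered 2, the list had 18 positive and 2 negative calls (background 25.8% and 27%) and a median difference of 0.61, against 0.65 with all samples. With only those samples for normoxia the median was 0.68. Each of the 10 other samples, left out singly, brought the 12 down to between 3 and 5, and total counts only left 6.

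Promoters of this list were searched because 12 of its members were called in 1 direction. Of the 28 tested members, 24 had a RefSeq promoter window (GRCm38.p6), and the letters TGATGNAAT, in which C/EBP and ATF factors can bind, occurred on either strand within 250 bases upstream of the start in 5 of them (20.8%). The same letters occurred in 42 of the 10377 tested genes with a window (0.405%). The called members with a match follow, with the match in capitals, each written 5′ to 3′ on the gene's strand. A match is a description of the sequence only.
Nupr1 (chr7:126625565-126625589, minus strand): agggccagATTGCATCAgacagggc
Pycr1 (chr11:120643835-120643859, minus strand): cctgtgtaTGATGCAATgcacaagg
Fgf21 (chr7:45615614-45615638, minus strand): acccccccATTGCATCAtccgtcca
Pycr1 makes proline and had a difference of 1.62 (SE 0.36, adjusted p = 0.0385). Nupr1, a stress-induced chromatin protein, had 1.505 (SE 0.31, adjusted p = 0.0306). Both were named after their values were seen, as was Aars, the alanyl-tRNA synthetase, which also held a match and missed the threshold with 0.66 (SE 0.17, adjusted p = 0.0585). The remaining match was in Gars, named likewise, which had 0.24 (SE 0.18, adjusted p = 0.495).

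Chaperones and quality control proteins of the endoplasmic reticulum had calls in the same direction. Of 27 members, 26 were tested and 5 had a more positive response (background 2.21%), with differences from 0.54 to 1.07, while 0 had a more negative one. The median response was 1.31 for wild type against 1.98 for ΔN-VEGF. Herpud1, a component of protein degradation at the endoplasmic reticulum, was at 76.8, 46.9 and 76.8 CPM in normoxic and 325, 329 and 337 CPM in hypoxic wild-type cells, and at 64.1, 69.9 and 59.8 CPM and then 683, 646 and 677 CPM in ΔN-VEGF cells. It rose in both lines, and the hypoxic groups did not overlap. Its difference was 1.07 (SE 0.23, adjusted p = 0.0323). Sel1l and Derl1, which act in the same degradation route, had differences of 0.98 (SE 0.20, adjusted p = 0.0279) and 0.86 (SE 0.15, adjusted p = 0.016), and the disulfide isomerase Pdia4 had 0.67 (SE 0.14, adjusted p = 0.0294). All 21 members that were not called had positive differences, from 0.03 to 1.07.

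Counts for this list were less stable than its median. Omitting the normoxia samples numbered 2, it had 20 positive calls (background 25.8%) and 1 negative, and the median difference was 0.50 against 0.55. Total counts only left 0 called, with a median of 0.38 against -0.147 for all genes. Leaving out any one of the 10 other samples left 0 to 3. The ER stress response element (ERSE), searched on either strand of the 250 upstream bases, occurred in 8 of the 22 members with a promoter window (36.4%) and in 17 of the 10377 genes (0.164%), but in 0 of the 3 called members that had a window.

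**Figure D2:**
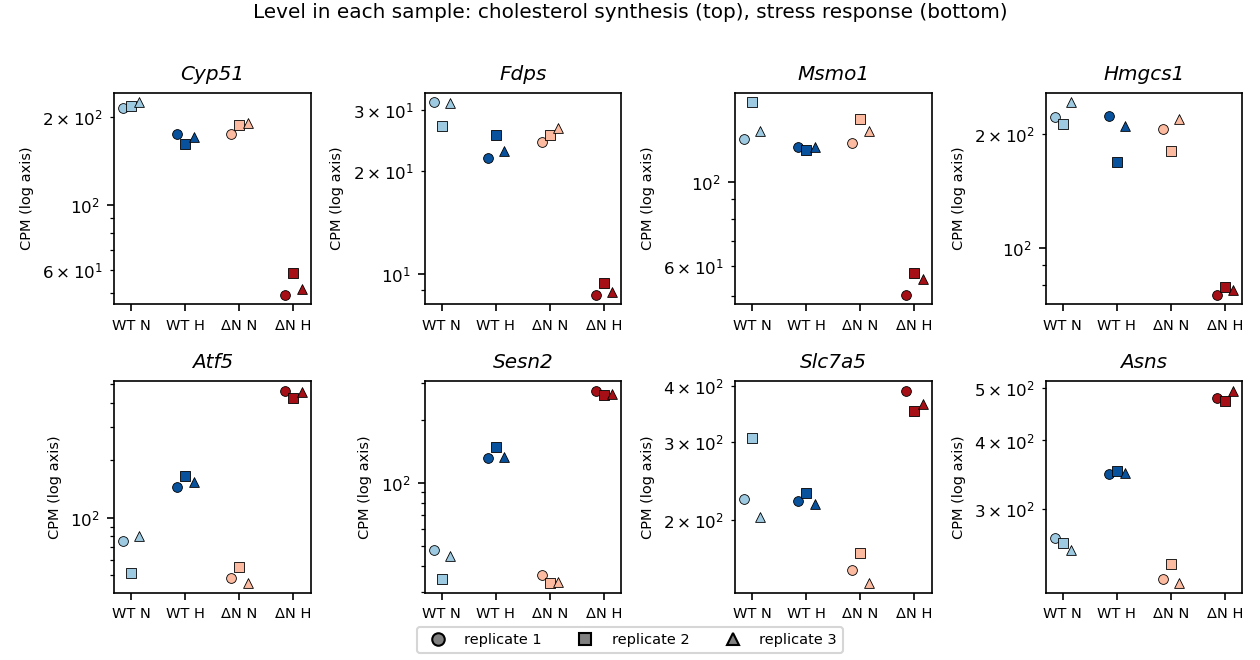
Level in CPM (log axis) of 4 cholesterol synthesis genes (top) and 4 integrated stress response genes (bottom) in each of the 12 samples, with wild type (WT) and ΔN-VEGF (ΔN) in normoxia (N) and hypoxia (H) on the x axis and the replicate shown by marker shape. The hypoxic ΔN-VEGF samples are lowest for each cholesterol gene (Cyp51 at 49.3 to 58.4 CPM) and highest for each stress gene (Atf5 at 421 to 463 CPM).

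Genes of the cell cycle had negative median differences but few or no calls with all samples. The 44 DNA replication genes, all tested, had a median response of -0.49 for wild type and -2.11 for ΔN-VEGF, and all 44 differences were negative. One was called, E2f2, an E2F transcription factor of the S-phase program. It was at 4.88, 8.31 and 4.99 CPM in normoxic and 2.93, 2.91 and 3.29 CPM in hypoxic wild-type cells, against 6.57, 6.7 and 6.52 CPM and then 0.908, 0.869 and 0.859 CPM in ΔN-VEGF cells. It fell in both lines, further in ΔN-VEGF cells, by a difference of -1.91 (SE 0.29, adjusted p = 0.00889). Mitosis and spindle genes had medians of -1.56 and -2.48 and 0 of 39 called. Over all genes 1.15% were called negative.

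The normoxic wild-type sample numbered 2 decided these counts. The centred level of the DNA replication list was -0.48, 1.46 and -0.45 in the normoxic wild-type samples and about 0 (0.004 to 0.014) in the hypoxic ones. In ΔN-VEGF cells it was 0.67, 1.37 and 0.73 in normoxia and -1.11, -0.99 and -1.05 in hypoxia. The hypoxic ΔN-VEGF samples were lowest whichever normoxia samples were used, but the sign of the wild-type response turned on sample 2. Without the normoxia samples numbered 2, the median wild-type response of the list was 0.48, the ΔN-VEGF one was -1.86, and 44 of 44 were called negative, as were 39 of 39 mitosis genes (background 27%). Leaving out wild-type normoxia replicate 2 alone gave the same 44 and 39. With only the samples numbered 2 for normoxia, the median difference was -0.996 for the replication list, whereas it was -0.01 for the mitosis list.

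Homologous recombination and Fanconi anemia genes, which repair breaks and crosslinks in replicating DNA, had 4 of 27 called, all negative (background 1.15%). Rad54l, a motor protein of strand exchange, was at 10.2, 28.9 and 9.5 CPM in normoxic and 14.6, 15 and 14.6 CPM in hypoxic wild-type cells. Its ΔN-VEGF levels were 22.5, 30.6 and 22 CPM in normoxia and 4.76, 4.47 and 4.32 CPM in hypoxia. Only the hypoxic ΔN-VEGF samples lay outside the wild-type range on the low side, and the difference was -2.33 (SE 0.51, adjusted p = 0.0342). Brca2, a mediator of strand invasion, gave -1.53 (SE 0.27, adjusted p = 0.0174), the Fanconi protein Fancd2 -1.98 (SE 0.46, adjusted p = 0.0411) and the recombinase paralog Rad51c -0.90 (SE 0.20, adjusted p = 0.0391). Counts of Rad54l are uncertain because Lrrc41 overlaps it. Of the 27, 24 were called negative (background 27%) and 0 positive without the normoxia samples numbered 2.

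**Figure D3:**
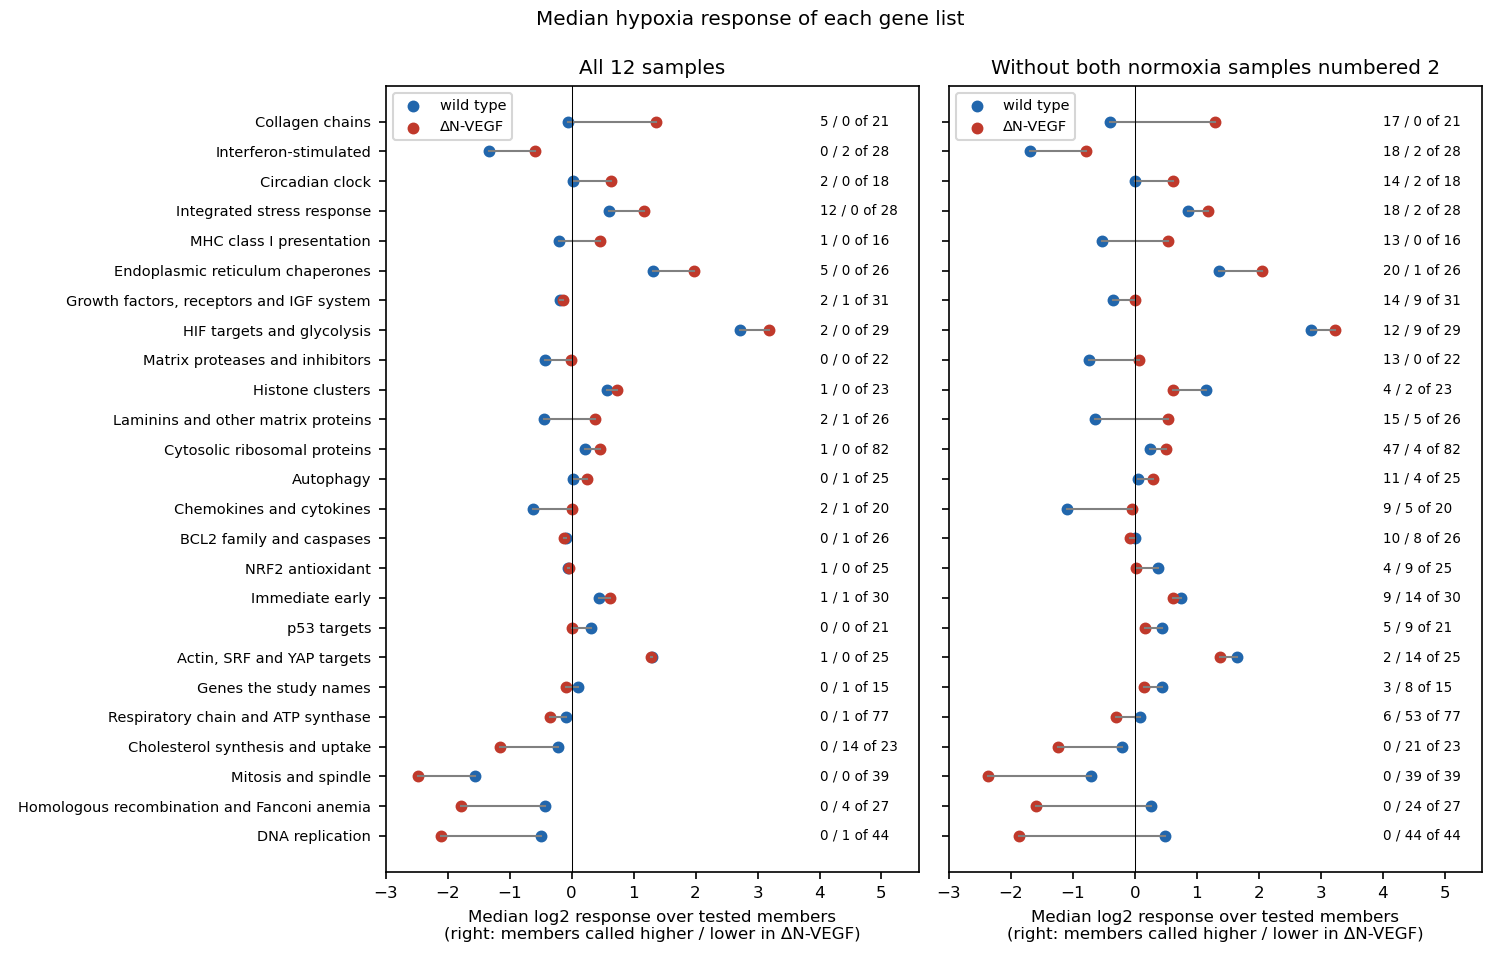
Median hypoxia response (log2 of hypoxia over normoxia) over the tested members of each gene list in wild-type cells (blue) and ΔN-VEGF cells (red), with all 12 samples (left) and without both normoxia samples numbered 2 (right); numbers at the right of each panel count members called higher and lower in ΔN-VEGF cells. The cholesterol list differs similarly in both panels (median difference -0.79 and -0.77), while the wild-type median of DNA replication moves from -0.49 to 0.48.

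Collagen genes were the extracellular matrix list with the largest positive median difference. Of 21 tested chains, 5 were called, all positive (background 2.21%), and the medians were -0.06 for wild type against 1.36 for ΔN-VEGF. Col3a1, the chain of type III collagen (chr1:45311538-45349706), stood at 2240, 336 and 2180 CPM in normoxic and 348, 348 and 341 CPM in hypoxic wild-type cells, and at 378, 397 and 370 CPM and then 1040, 1020 and 1010 CPM in ΔN-VEGF cells. Normoxic wild-type sample 2 lay with the hypoxic wild-type samples, far from the other normoxic ones. The difference was 3.62 (SE 0.70, adjusted p = 0.0232), and 1.33 with only the normoxia samples numbered 2.

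The other called collagens were not reversed. Col5a2 rose in both lines and had a difference of 0.74 (SE 0.11, adjusted p = 0.00705). Its partner Col5a1 gave 1.14 (SE 0.23, adjusted p = 0.0279). For Col4a1, a basement membrane chain whose span overlaps Col4a2, wild-type cells had 539 to 1000 CPM in normoxia and 1000 to 1070 CPM in hypoxia, while ΔN-VEGF cells went from 802 to 846 CPM up to 2420 to 2600 CPM, a difference of 1.27 (SE 0.26, adjusted p = 0.0285). A total of 17 of 21 chains were called, all positive, without the normoxia samples numbered 2 (background 25.8%). Only 1 call was left when any one of the 10 other samples was dropped, and 2 with total counts only. With the samples numbered 2 as the only normoxia samples, 8 were called positive and 2 negative (background 9.2% and 7.13%), and the median difference was 0.56, against 1.20 with all samples and 1.22 without those 2.

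Of the 20 reversed genes, 13 passed the test of the hypoxia response in each line (7 of 12 reversed to a rise and 6 of 8 reversed to a fall). All 12 genes reversed to a rise kept that class without the normoxia samples numbered 2, but only 2 of them did with those samples as the only normoxia ones. Of the 8 reversed to a fall, 7 and 2 did. The genes that kept their class in that last fit were Crabp2, Gm13832, Cxcl10 and Gm10701, with group means of at most 0.97 CPM. Ccr7, a chemokine receptor, was at 6.03, 0.441 and 5.66 CPM in normoxic and 0.831, 0.788 and 0.943 CPM in hypoxic wild-type cells, and went from 10.7, 5.99 and 9.95 CPM to 50.9, 47.3 and 46.1 CPM in ΔN-VEGF cells. Its difference was 4.67 (SE 0.90, adjusted p = 0.0231). Il33, an alarmin cytokine, was at 21.7, 2.9 and 22.3 CPM and then 6.02, 4.93 and 5.91 CPM in wild-type cells, against 22.1, 47.2 and 23.8 CPM and then 169, 171 and 173 CPM in ΔN-VEGF cells. For both genes the wild-type normoxia sample 2 lay below all hypoxic wild-type samples, so that the wild-type fall came from the other normoxia samples, whereas the rise in ΔN-VEGF cells held in every sample. The difference of Il33 was 3.94 (SE 0.80, adjusted p = 0.029), although its wild-type response alone did not pass (-1.47, adjusted p = 0.0637). With only the normoxia samples numbered 2, the differences were 2.05 for Ccr7 and 0.90 for Il33.

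Lama4, a laminin chain of vascular basement membranes, had the same layout, with 8.19, 1.39 and 8.11 CPM and then 1.95, 2.6 and 1.73 CPM in wild-type cells. ΔN-VEGF cells had 6.07, 3.22 and 5.59 CPM and then 16.4, 15 and 15.8 CPM, and the difference was 3.16 (SE 0.71, adjusted p = 0.0395), and 1.73 with only the normoxia samples numbered 2. Cdk20, a cyclin-dependent kinase family member, was reversed without such a split between replicates. It was at 24.8, 18.1 and 21.4 CPM in normoxic and 12.1, 14.4 and 12.5 CPM in hypoxic wild-type cells, and at 14.8, 15.4 and 13.6 CPM and then 23.1, 24.9 and 21.5 CPM in ΔN-VEGF cells. No normoxic group overlapped its hypoxic group, and the difference was 1.39 (SE 0.18, adjusted p = 0.00514). With only the normoxia samples numbered 2, Cdk20 was classed as a larger rise, with a wild-type response of -0.49 and a difference of 1.07.

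Among genes reversed to a fall, Tnxb, the matrix glycoprotein tenascin X, met the expression minimum for naming. Wild-type cells had 7.19, 8.48 and 6.3 CPM in normoxia and 15, 17 and 14.9 CPM in hypoxia, and ΔN-VEGF cells 8.08, 6.04 and 7.03 CPM and then 4.76, 4.02 and 4.35 CPM. It rose in the wild type and fell in the edited line with no overlap within either line, a difference of -1.78 (SE 0.21, adjusted p = 0.00393). With only the normoxia samples numbered 2, Tnxb was classed as a smaller rise, with a difference of -1.33. Cxcl10, an interferon-induced chemokine, had only 8, 8 and 10 and then 22, 18 and 22 counts in wild-type cells and 5, 14 and 5 and then 1, 1 and 3 counts in ΔN-VEGF cells, so its opposite movement rests on few reads. The other reversed genes, named here after their values were seen to complete the class, were Crabp2, Gm13832, Pappa2, Pcdhgb5, Rarres2, Sdk2 and Sipa1l2 among the rises, and Bglap3, Gm10701, Mybl1, Slc16a6, Tssk4 and Vmn1r43 among the falls. Of these 13, Sipa1l2 was the most abundant, at 63.8, 42.4, 84.3 and 126 CPM on average in the 4 groups in the order above.

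**Figure D4:**
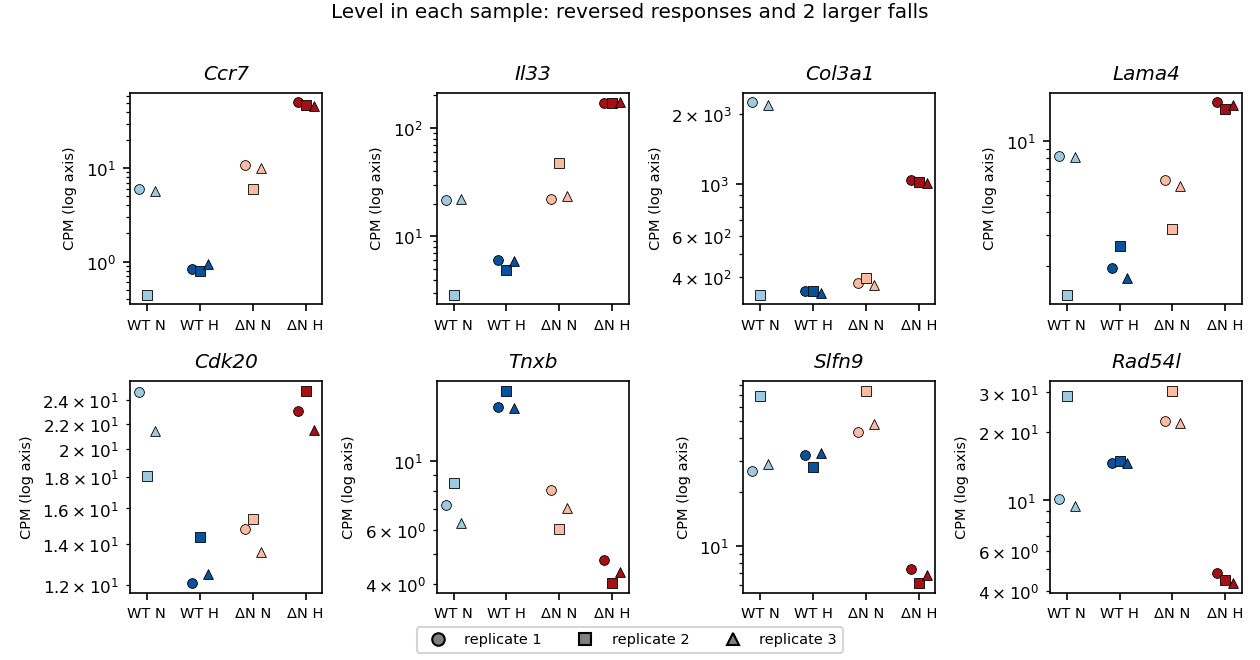
Level in CPM (log axis) of 6 genes with reversed responses and of Slfn9 and Rad54l, which had larger falls, in each of the 12 samples, with groups and markers as in the pathway plot. In Ccr7, Il33, Col3a1 and Lama4 the normoxic wild-type sample 2 lies far below samples 1 and 3 (336 against 2240 and 2180 CPM for Col3a1), while Cdk20 and Tnxb show no such split.

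Larger rises with the largest differences were found in genes of unlike function. Tspan33, a tetraspanin that guides the protease ADAM10 (chr6:29694222-29718559), was at 0.822, 1.16 and 1.39 CPM in normoxic and 1.74, 1.54 and 1.76 CPM in hypoxic wild-type cells. ΔN-VEGF cells had 1.57, 1.4 and 1.45 CPM in normoxia and 30.3, 32.4 and 30.6 CPM in hypoxia. Its hypoxic ΔN-VEGF samples were separate from the 9 others by more than any spread among those, and the difference of 3.82 (SE 0.24, adjusted p = 6.6e-05) stayed called under every alternative, up to an adjusted p of 0.000998. P2ry6, a receptor for UDP, had 1 to 4 counts in each normoxic sample of either line, 153 to 177 counts in hypoxic wild-type cells and 1236 to 1254 in hypoxic ΔN-VEGF cells. Atp9a, a lipid flippase, and Spns3, a spinster family transporter, likewise had 2 to 6 and 1 to 6 counts in normoxic ΔN-VEGF cells, against 695 to 758 and 763 to 816 in hypoxia, so no fold is given for these 3 genes. In hypoxia the levels of Atp9a were 6.31 to 9.42 CPM in wild-type and 22.4 to 23.7 CPM in ΔN-VEGF cells. Ush1g, a scaffold protein whose span overlaps Otop2, had a difference of 3.24 (SE 0.67, adjusted p = 0.0295).

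Among larger falls, Slfn9, a Schlafen family gene (chr11:82978390-82991830), was at 26.2, 69.2 and 28.7 CPM in normoxic and 32.1, 27.8 and 33 CPM in hypoxic wild-type cells. It went from 43.6, 74.3 and 48.4 CPM to 7.39, 6.18 and 6.84 CPM in ΔN-VEGF cells, below all other samples, with a difference of -2.61 (SE 0.48, adjusted p = 0.0183). Nr1h5, a nuclear receptor of the farnesoid group, fell in both lines and further in ΔN-VEGF cells, where hypoxic samples had 17, 9 and 21 counts, by a difference of -2.63 (SE 0.59, adjusted p = 0.0382). Cracr2a, a regulator of store-operated calcium entry, gave -2.03 (SE 0.36, adjusted p = 0.0174), and the predicted gene Gm2115 gave -1.98 (SE 0.43, adjusted p = 0.0332).

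Smaller rises were few. Mustn1, a gene of muscle and skeletal tissue, was at 8.4, 10.5 and 8.05 CPM in normoxic and 36.3, 39.8 and 38.4 CPM in hypoxic wild-type cells, and at 16, 8.55 and 16.2 CPM and then 20.3, 24.4 and 20.4 CPM in ΔN-VEGF cells. Neither line's groups overlapped, and it rose by 2.09 in the wild type and by 0.67 in the edited line. The difference was -1.41 (SE 0.30, adjusted p = 0.0325), and -0.51 with only the normoxia samples numbered 2. Edn2, an endothelin, had 2, 15 and 2 counts in normoxic wild-type cells and 32, 5 and 25 in normoxic ΔN-VEGF cells. In hypoxia it was at 39.7 to 45.1 CPM in wild-type and 13.5 to 15.1 CPM in ΔN-VEGF cells. The difference of Edn2 was -5.41 without the normoxia samples numbered 2. With those alone for normoxia it was 0.0019. Inhba, a subunit of activin, was a smaller rise as well, with a difference of -0.91 (SE 0.20, adjusted p = 0.0395).

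The smaller falls were 17 genes with a median response of -0.69 for wild type against 0.19 for ΔN-VEGF, so the class holds genes with a wild-type fall and little or no fall in the edited line. Dcn, the proteoglycan decorin (chr10:97479609-97518143), stood at 57, 10.8 and 54.8 CPM in normoxic and 6.13, 5.51 and 5.91 CPM in hypoxic wild-type cells, and at 47.3, 79.1 and 46.7 CPM and then 60.6, 60.4 and 61.7 CPM in ΔN-VEGF cells. It fell in wild-type cells, and the ΔN-VEGF groups overlapped. The difference was 2.88 (SE 0.66, adjusted p = 0.0411) with all samples and 0.50 with only the normoxia samples numbered 2. Ptgfrn, an immunoglobulin protein of tetraspanin complexes, had a difference of 1.25 (SE 0.23, adjusted p = 0.0201), with responses of -0.84 for wild type and 0.42 for ΔN-VEGF. Rcan2, a calcineurin regulator, had 1.16 (SE 0.21, adjusted p = 0.0192), with -0.88 and 0.28. The zinc finger factor Tshz1 had 1.10 (SE 0.21, adjusted p = 0.0218), with -0.66 and 0.44. The wild-type fall passed the test for each of these genes, and in ΔN-VEGF cells Tshz1 rose (adjusted p = 0.0274), below the size set for a reversed response.

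The 29 HIF targets, glycolysis genes and other genes of hypoxia adaptation had median responses of 2.71 for wild type and 3.19 for ΔN-VEGF, with 2 called positive (background 2.21%) and 0 negative. Vegfa itself (chr17:46016993-46032369) was at 86.2, 39.4 and 82.6 CPM in normoxic and 277, 272 and 291 CPM in hypoxic wild-type cells, and at 37.3, 34.2 and 35.5 CPM and then 437, 419 and 430 CPM in ΔN-VEGF cells. It rose in both lines, with no overlap between normoxic and hypoxic samples of a line. The difference was 1.57 (SE 0.32, adjusted p = 0.0281) and 0.82 with only the normoxia samples numbered 2. Part of the counted sequence is missing from both ΔN-VEGF groups, so levels of the lines are not set against each other per molecule, and the gene count does not check the deletion. P4ha2, a prolyl hydroxylase of collagen, had a difference of 0.66 (SE 0.14, adjusted p = 0.0312). With the normoxia samples numbered 2 left out, 12 of the 29 were called positive (background 25.8%) and 9 negative (background 27%, a like share), and the median difference was 0.03. With only those samples for normoxia, the median was 0.39.

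The remaining functional lists had 0 to 2 members called in either direction with all samples. Interferon-stimulated genes had, beside a negative background of 1.15%, 0 positive and 2 negative calls (Slfn9, and Ifit2 at -0.92, SE 0.22, adjusted p = 0.0495) while the median difference of the 28 was positive, 0.80. Their level was 1.05, -0.72 and 1.07 in the normoxic wild-type samples on the centred log2 scale. Without the normoxia samples numbered 2 there were 18 positive and 2 negative calls (background 25.8% and 27%), and with only those samples the median was -0.45, so the direction of this list turned with those samples. Matrix proteases did likewise, with 0 called, 13 positive calls of 22 without those samples (background 25.8%), and medians of 0.25, 0.77 and -0.54 in the 3 fits. Circadian genes Ciart, a repressor, and Cry2, a cryptochrome, had differences of 1.30 (SE 0.21, adjusted p = 0.011) and 1.02 (SE 0.23, adjusted p = 0.0382). The clock list had a median difference of 0.75 with all samples and 1.12 without the normoxia samples numbered 2 (14 positive and 2 negative calls of 18, background 25.8% and 27%). With only those samples the median was 0.01, and Cry2 had 0.44.

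Single members stood out in other lists. Positive differences were found for Cnn1, the smooth muscle calponin (2.08, SE 0.21, adjusted p = 0.00171), for Hmox1, heme oxygenase (0.93, SE 0.18, adjusted p = 0.0262), for Zfp36, a protein that destabilises cytokine transcripts (0.88, SE 0.15, adjusted p = 0.016), and for the class I molecule H2-T23 (1.79, SE 0.41, adjusted p = 0.0411). With only the normoxia samples numbered 2, H2-T23 had 0.72. Linker histone Hist1h1c (0.71, SE 0.16, adjusted p = 0.0385) and ribosomal protein Rpl10 (0.58, SE 0.14, adjusted p = 0.0457) were further positive calls. Negative ones were the ERK phosphatase Dusp6 (-1.02, SE 0.23, adjusted p = 0.0411), Casp8, an initiator caspase (-0.79, SE 0.17, adjusted p = 0.033), the autophagy protein Uvrag (-0.62, SE 0.13, adjusted p = 0.0295), the ATP synthase subunit Atp5l (-0.69, SE 0.16, adjusted p = 0.0473, and -0.36 with only the normoxia samples numbered 2) and keratin Krt14 (-1.497, SE 0.34, adjusted p = 0.0396), which was on the epithelial marker list. Of 21 p53 targets, 0 were called with all samples by edgeR, and without the normoxia samples numbered 2 there were 5 positive and 9 negative calls, beside a background of 25.8% positive and 27% negative that also applies to the following counts without those samples. Respiratory chain genes had 1 of 77 called with all samples and 53 negative and 6 positive calls without those samples. Ribosomal proteins had 1 of 82, and then 47 positive and 4 negative. Actin, SRF and YAP targets had 1 of 25, and then 2 positive and 14 negative. With only the samples numbered 2 for normoxia, the median difference of the actin list was 0.30, against -0.47 without them, so its direction turned. That of the respiratory list was 0.0013. With all samples the background for these single calls was 2.21% positive and 1.15% negative.

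The genes that the study lists as changed by N-VEGF sent to the nucleus in normoxia come from other samples than these. Of the 123 listed as upregulated, all were tested, 8 had a more positive and 4 a more negative response in ΔN-VEGF cells (background 2.21% and 1.15%), and the median difference was -0.02. Of the 32 downregulated, 0 and 2 were called, with a median of -0.23. With the normoxia samples numbered 2 left out, the upregulated genes had 40 positive and 48 negative calls and the downregulated ones 7 and 13, against 25.8% and 27% of all genes. Aqp1, a water channel, was at 121 to 134 CPM in normoxic and 119 to 131 CPM in hypoxic wild-type cells, overlapping groups, and went from 102 to 156 CPM down to 42.4 to 47.5 CPM in ΔN-VEGF cells. The study names Aqp1 among the genes raised by nuclear N-VEGF and lowered in ΔN-VEGF cells, the latter read from these same samples. It was also picked here from earlier results of these data, so its fall is no independent finding. Ero1l, the oxidase that supplies disulfides, had a difference of 1.16 (SE 0.19, adjusted p = 0.0126) and Glce, an enzyme of heparan sulfate, 1.36 (SE 0.19, adjusted p = 0.0063). On the negative side were Nsdhl, a sterol dehydrogenase that is also on the cholesterol list (-1.22, SE 0.17, adjusted p = 0.00688), Acat2, which makes acetoacetyl-CoA (-1.31, SE 0.20, adjusted p = 0.00889), and the enolase Eno3 (-0.95, SE 0.16, adjusted p = 0.0134).

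**Figure D5:**
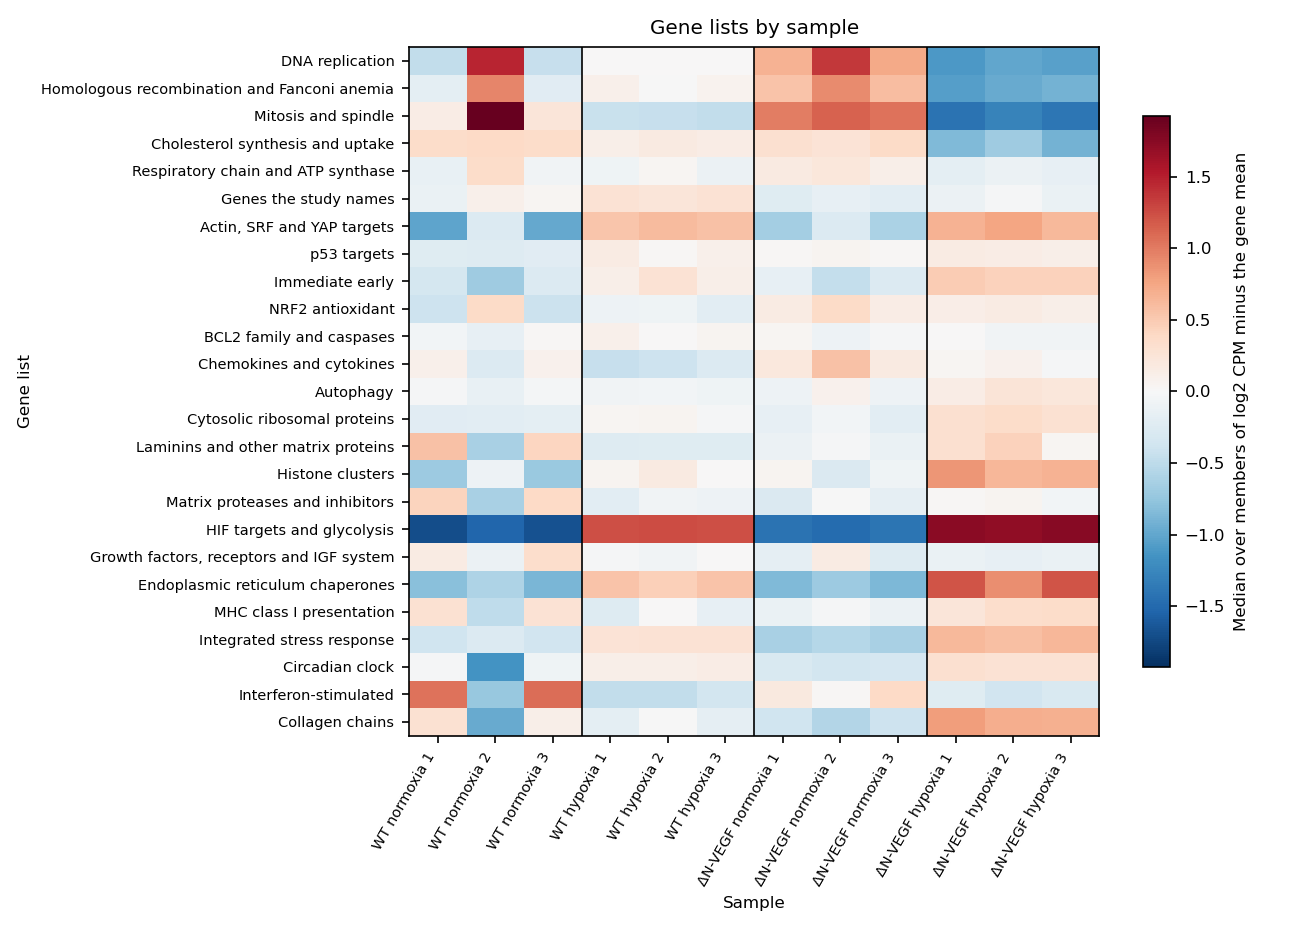
Median over the tested members of each gene list (rows) of the log2 CPM minus the gene's mean over all samples, in each of the 12 samples (columns), with red above and blue below the mean. The normoxic wild-type sample 2 differs from samples 1 and 3 in DNA replication (1.46 against -0.48 and -0.45) and in interferon-stimulated genes (-0.72 against 1.05 and 1.07), while the cholesterol row is low only in hypoxic ΔN-VEGF samples (-0.90 to -0.68).

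Genes called without the normoxia samples numbered 2 but not with all 12 samples were named by the size of their difference without those samples. Igf2, a growth factor whose span overlaps Igf2os, had 284, 2 and 186 counts in normoxic and 8, 2 and 5 in hypoxic wild-type cells, and 58, 1389 and 63 and then 1588, 1451 and 1565 in ΔN-VEGF cells. In both cases normoxic sample 2 lay nearer to the hypoxic samples of its line than to its other normoxic samples. In ΔN-VEGF cells it was still below the hypoxic ones, at 32.9 CPM against 46.7 to 49.7 CPM. Ccl8, a chemokine, was at 0.689, 62.1 and 0.735 CPM in normoxic ΔN-VEGF cells and at 22.9 to 26.2 CPM in hypoxic ones. C3, complement component 3, was at 51.1, 2.14 and 47.2 CPM in normoxic and 22.7 to 25.1 CPM in hypoxic wild-type cells. Its difference was 4.90 without the samples numbered 2 (adjusted p = 4.94e-18) and -1.43 with only those, 1 normoxia sample per line, so the direction was opposite. Fhl1, a LIM protein, was at 0.365, 9.43 and 0.25 CPM in normoxic and 21.8 to 22.2 CPM in hypoxic wild-type cells. Tnnt3, Aspn, U90926, Eps8l2, Gm48455 and Aire completed the genes so named, and with all samples their adjusted p ranged from 0.0529 for Tnnt3 to 0.591 for U90926. With only the samples numbered 2 for normoxia, Gm48455 (-2.004), U90926 (-1.32) and Eps8l2 (-0.31) had the same sign as without them. In bulk samples, fewer cells of a type and less RNA per cell cannot be told apart.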

How the data were processed

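RNA was measured in 12 samples as 80-bp single reads from unstranded libraries. The values used are raw counts per gene, deposited by the authors in 1 table for all samples. The submitters' processing notes name FastQC 0.11.5, Trim Galore, cutadapt 1.10, TopHat2 2.1.0, Bowtie2 2.2.6, HTSeq 0.6.1 and DESeq2 1.18.1. The build is GRCm38. The strand setting of the counting was not given in the sources used here, and overlapping genes can share or lose reads.

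From the counts, edgeR 4.0.16 (R 4.3.3) was run with TMM scaling, its filter on low counts, 1 mean per group and the quasi-likelihood test, and p-values were adjusted by Benjamini-Hochberg over all tested genes. All p-values are two-sided. The interaction was the difference of the hypoxia responses. CPM used the TMM-scaled library sizes, except for the summed markers, which used total counts only. Total counts on genes were 30519052 to 43056690, with 3 samples per group. The fits were also run on simulated counts with planted differences. With all 12 samples, 29 of 99 planted 2-fold and 78 of 100 planted 4-fold differences were called. Another 12 genes without a planted difference were called. Every sample was simulated with the same spread for a gene, so no samples stood apart as the normoxia samples numbered 2 do. The simulation is therefore no check of the calls in these data.

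Groups came from the labels. The samples, gene lists and naming rule were chosen with earlier results of these data known. Named were, per class, the 5 genes with the largest difference among those called with and without the normoxia samples numbered 2, at least 2-fold and with at least 10 CPM in a group. Added were up to 4 called members per list (smallest p first), 5 genes per direction called without those samples but not with all 12, and Vegfa, Rhox5 and Aqp1. Alternatives were DESeq2 1.42.0, scaling by RLE or by totals alone, dropping the filter or asking for 10 counts or more throughout, a 2-fold minimum, the replicate block, limma 3.58.1 voom with sample weights, and samples left out. The lists of genes changed by nuclear N-VEGF were taken from the study as names only. A gene that met the naming rule is not reported here.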

Additional observations from a re-analysis of the deposited data

Results flagged for a closer look

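The hypoxia response differed between the lines, by the test of the difference itself, for 495 genes. Those named by the rule are given here with their difference in response (ΔN-VEGF minus wild type, log2, all 12 samples), without an explanation.

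Among stress response and endoplasmic reticulum genes the differences were 2.0 for Atf5, 1.27 for Sesn2, 1.36 for Slc7a5, 0.66 for Asns, 1.07 for Herpud1, 0.98 for Sel1l, 0.86 for Derl1, 0.67 for Pdia4, 1.16 for Ero1l and 0.93 for Hmox1. Sterol and lipid genes had -1.42 for Cyp51, -1.12 for Fdps, -1.12 for Msmo1, -1.21 for Hmgcs1, -1.22 for Nsdhl and -1.31 for Acat2. Genes of the cell cycle, DNA repair, cell death and autophagy had -1.91 for E2f2, -2.33 for Rad54l, -1.53 for Brca2, -1.98 for Fancd2, -0.90 for Rad51c, 1.39 for Cdk20, -0.79 for Casp8 and -0.62 for Uvrag.

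Matrix, cytoskeleton and surface genes had 3.62 for Col3a1, 1.27 for Col4a1, 1.14 for Col5a1, 0.74 for Col5a2, 3.16 for Lama4, -1.78 for Tnxb, 2.88 for Dcn, 0.66 for P4ha2, 1.36 for Glce, 2.08 for Cnn1, -1.497 for Krt14, 1.25 for Ptgfrn and 3.82 for Tspan33. Immune genes had 4.67 for Ccr7, 3.94 for Il33, -2.61 for Slfn9, -0.92 for Ifit2 and 1.79 for H2-T23. Signaling, transport and clock genes had 1.57 for Vegfa, -0.91 for Inhba, -1.02 for Dusp6, 0.88 for Zfp36, 1.16 for Rcan2, 1.10 for Tshz1, -2.63 for Nr1h5, -2.03 for Cracr2a, -1.38 for Aqp1, 3.24 for Ush1g, 1.30 for Ciart and 1.02 for Cry2. Metabolic and remaining genes had -0.95 for Eno3, -0.69 for Atp5l, 0.58 for Rpl10, 0.71 for Hist1h1c, -1.41 for Mustn1 and -1.98 for Gm2115.

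Fitted values that rest on very few reads in at least 1 group, and so depend on the fit and bound no fold, were 4.68 for Atp9a, 4.20 for Spns3, 3.34 for P2ry6, 3.98 for Fgf21, -3.29 for Edn2 and -3.39 for Cxcl10.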

How the results depend on the processing

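Counts follow this order throughout: called genes, positive and negative differences, larger, smaller and reversed responses, then members called over all lists (main values 495, 326, 169, 436, 39, 20 and 75). DESeq2 gave 1569, 1088, 481, 1299, 174, 96 and 192, with 14 chaperones, 13 collagens, 7 DNA replication and 3 mitosis genes. A 2-fold minimum gave 230, 131, 99, 193 larger and 17 smaller responses and 43 list members, with 6 cholesterol genes and 1 chaperone. Without both normoxia samples numbered 2 the counts were 7963, 3888, 4075, 5031, 2380, 552 and 627, with 20 chaperones, 17 collagens, 44 DNA replication and 39 mitosis genes. Sample quality weights in voom gave 8814, 4386, 4428, 5558, 2719, 537 and 660, with 19 stress response genes, 21 chaperones, 18 collagens, 44 DNA replication and 39 mitosis genes. The normoxia samples numbered 2 alone, chosen after seeing the data, gave 2489, 1402, 1087, 1773, 661, 55 and 309, with 23 stress response genes, 18 chaperones, 8 collagens, 38 DNA replication and 14 mitosis genes. Total counts only gave 903, 147, 756, 787, 85 and 31 reversed, with 6 stress response genes, 0 chaperones, 2 collagens, 7 DNA replication and 3 mitosis genes. No filter gave 59 reversed genes, 3 chaperones, 9 collagens, 5 DNA replication and 3 mitosis genes, and at least 10 counts in every sample gave 8 chaperones and 2 DNA replication genes. Positive differences were 65.9% of calls in the main fit, 16.3% with total counts only and 48.8% without the samples numbered 2. The cause of these shifts was not tested.

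With samples left out singly, the same counts ranged from 75 to 6729, 52 to 3240, 23 to 3489, 69 to 4342, 3 to 1819, 3 to 568 and 17 to 533. Cholesterol genes ranged from 6 to 19, stress response from 3 to 17, chaperones from 0 to 14, collagens from 1 to 16, DNA replication from 1 to 44 and mitosis from 0 to 39. The upper end came from leaving out wild-type normoxia replicate 2.

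Same-numbered samples of different groups had a mean correlation of deviations of 0.102 (-0.057 to 0.498), against -0.0441 for others, so the numbers were not taken as pairs. Same-numbered normoxia samples of the 2 lines had 0.355 to 0.498, but samples 1 and 3 crossed between the lines had 0.347 to 0.358, and the other 15 same-numbered pairs had -0.057 to 0.109. With the replicate block 484 genes and 3 DNA replication genes were called, and 11 of the 66 named calls missed the threshold (Cry2, Dcn, Edn2, H2-T23, Ifit2, Il33, Inhba, Lama4, Mustn1, Nr1h5 and Rpl10, adjusted p 0.0503 to 0.0698 in edgeR's test).

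The sign of the difference turned with the normoxia samples numbered 2 alone for Aire (2.52), Aspn (-0.0746), C3 (-1.43), Ccl8 (-0.28), Edn2 (0.0019), Fhl1 (0.91), Igf2 (-0.97) and Tnnt3 (-0.18), and for Fhl1 without wild-type normoxia replicate 1 (0.0627) or 3 (0.0892), while it was -3.92 without replicate 2. The cause was not tested. Of 686 values of the 78 named genes under the alternatives other than single samples left out, 604 kept direction and side of the threshold, 38 lost and 36 gained a call, and 8 turned. With any one of the 10 samples other than the normoxia samples numbered 2 left out, 35 to 45 of the 66 calls reported by name were lost, against 0 without wild-type and 10 without ΔN-VEGF normoxia replicate 2. The 686 values include the fit with only the normoxia samples numbered 2, which has no spread within normoxia. A difference that was not called may have been missed.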
